A study of Chlamydomonas reinhardtii with 12 samples.

Results

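The data are 4 slides of a 2-colour cDNA microarray on which the wild-type strain CC-125 of the green alga Chlamydomonas reinhardtii was compared with the double mutant npq1 lor1 after 1 h of high light. They were taken by their title from the 12 slides of a time course, whose other slides compare the same strains in low light and after 6 h of high light, with 4 slides each. The 4 slides hold 2 biological samples, each measured on 2 slides with the strains exchanged between the channels. A slide is called wild-type-first or mutant-first here by the strain in its channel 1. Neither the light intensities nor the number of cultures behind a biological sample is given in the sources used here. The p-values measure the spread between biological samples, pooled over the time points, which may therefore be partly technical.

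In oxygenic photosynthesis, carotenoids of the thylakoid membrane drain excess excitation from chlorophyll and quench the reactive oxygen that forms when light exceeds what can be used. The npq1 mutant cannot convert violaxanthin into zeaxanthin, which normally accumulates within minutes of a shift to strong light, and lor1 cannot make lutein. The double mutant thus enters the shift without either pigment, and such strains are known to be sensitive to strong light. The first hour after a shift is the early phase, in which algae begin to lower their light-harvesting antenna and to induce protective proteins.

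The array has 11520 spots, which stand for 2880 elements in 4 copies. Values of exactly 0 were read as missing. An element's value on a slide is the mean of at least 2 copies, and the mean of the exchanged slides is the value of a biological sample. Both biological samples had a value for 2272 elements, which were tested with limma. The 608 other elements were not tested at 1 h, and 323 of them lacked a value only on slide 2 of biological sample 2. That slide had 5000 values of 0 (43.4% of its spots), against 1012 to 2166 on the other 3 slides, and a median SD between copies of 0.271, against 0.0497 to 0.154. Of 105 elements with a single locus tag, 93 were tested. The genes behind these locus tags are named here from general knowledge of the genome annotation, since the tables used give no symbols.

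All values are log2 ratios with the sign as deposited. The likely reading is wild type over npq1 lor1, so that a negative ratio means more transcript in the mutant. This rests on the order of the strains in the titles and on the ratio given for the exchanged slides, Cy5 over Cy3 in place of Cy3 over Cy5, since no label says which dye a channel read. The exchanged slides did not repeat each other across elements. Pearson's r was -0.47 between the slides of biological sample 1 and -0.01 between those of sample 2, but 0.49 between the wild-type-first slides and 0.59 between the mutant-first slides. These r are across elements, which are not independent replicates. Averaged over both orientations, the biological samples correlated with r = 0.38. The difference between the orientations, divided by 2, had a median size of 0.150, against 0.0697 for the mean of the orientations, and it was the larger of the 2 for 1607 of 2272 elements (70.7%). If the exchanged slides had not been inverted as described, 796 elements would pass the test at 1 h, 708 of them with a positive ratio. Rankings by size below hold for the deposited sign alone. The share with one sign was 8.89% of the tested elements (202), of which 85 were negative (3.74%) and 117 positive (5.15%).

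After 1 h of high light, 16 of 2272 tested elements differed between the strains at an adjusted p under 0.05 (0.704%). Of these, 11 were negative (0.484% of the tested elements) and 5 positive (0.22%), and none has a locus tag. Before adjustment, 267 elements had a p under 0.05 (11.8%). Among the locus-tagged elements, 15 were counted as thylakoid complexes, a group that includes the electron carriers plastocyanin and ferredoxin and several elements of the gene ATPC. Their ratios were mostly negative, but 0 of the 15 passed limma's adjusted threshold and 7 had an unadjusted p under 0.05. Alternative settings called up to 5 of the 15 with both orientations as deposited. The 5 came with the spread taken from 1 h alone, where 81 of 2272 elements were called. Means lay between -0.11 and -0.03 for 1 listed gene of carbon fixation, 2 of chlorophyll synthesis and those of mitochondrial ATP synthase. The haem pathway enzyme coproporphyrinogen III oxidase had 0.06. With the deposited sign, malate synthase had the most positive mean of a locus-tagged element and was not called.

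**Figure D1:**
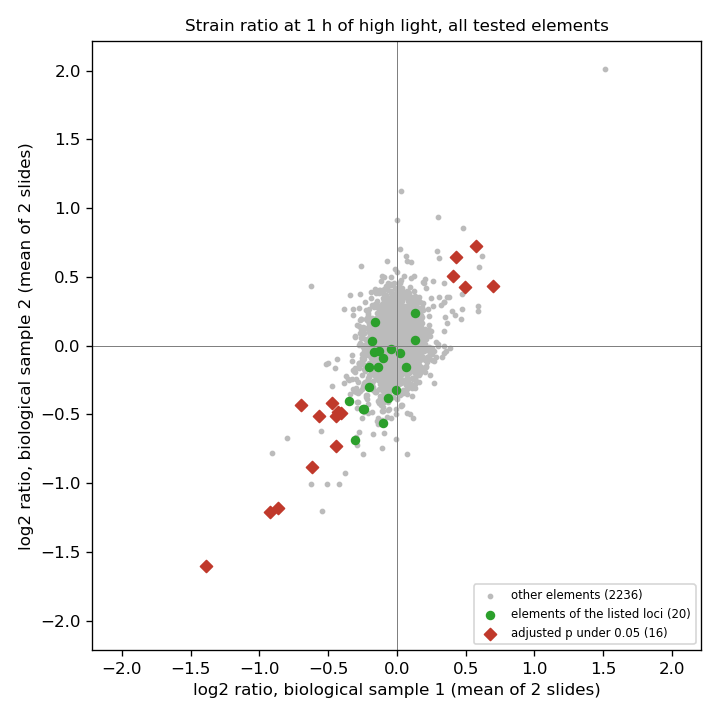
Log2 ratio at 1 h in biological sample 1 (x axis) against biological sample 2 (y axis), each the mean of 2 exchanged slides, for the 2272 tested elements. Red diamonds are the 16 elements with an adjusted p under 0.05 and green circles the 20 elements of the listed photosynthesis and pigment loci, most of which lie below 0 in both samples.

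The stress-related light-harvesting protein LHCSR1 (CHLRE_08g365900v5), which in Chlamydomonas dissipates excess excitation and accumulates under light stress, is the photoprotection gene among the listed loci with a locus tag. On the wild-type-first slides its log2 ratio was -0.13 in biological sample 1 and -0.48 in sample 2, and on the mutant-first slides it was -0.07 and -0.65. All 4 slides lay below 0, but the samples differed from each other by more than sample 1 differed from equality. The mean was -0.33 ± 0.33 (SD, n = 2, limma adjusted p = 0.293). In low light the mean ratio was -0.25 and at 6 h it was -1.03, where it passed the test (adjusted p = 0.00358). The step from 1 h to 6 h was -0.70 (SE 0.16, adjusted p = 0.127) and the step from low light to 1 h was -0.08 (SE 0.16, adjusted p = 0.971). Neither step passed, so a difference between 1 h and the other time points was not shown for LHCSR1.

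The antenna of photosystem II is represented by the major light-harvesting protein LHCBM3 (CHLRE_04g232104v5) and by the minor antenna proteins LHCB4, called CP29, and LHCB5, called CP26, which link the major antenna to the reaction centre. LHCBM3 had ratios of -0.57 and -0.68 on the wild-type-first slides of the 2 samples, and of -0.05 and -0.69 on the mutant-first slides. Its mean of -0.50 ± 0.27 (SD, n = 2, adjusted p = 0.111) was the most negative of all locus-tagged elements tested at 1 h, and 3 of its 4 slides lay between -0.57 and -0.69. With the exchanged slides turned its mean was -0.13, and other locus-tagged elements were more negative, such as CHLRE_03g178250v5 at -0.59. LHCBM3 could not be tested in low light or at 6 h.

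For LHCB5 (CHLRE_16g673650v5) the orientations disagreed in sign. The wild-type-first slides gave 0.16 and 0.15, and the mutant-first slides gave -0.56 and -0.75. The mean of -0.25 ± 0.07 (SD, n = 2, adjusted p = 0.185) thus has a small SD between biological samples beside a large gap between orientations, which the SD does not contain. LHCB4 (CHLRE_17g720250v5) had -0.08 and -0.06 on wild-type-first slides and -0.13 and -0.11 on mutant-first slides, a mean of -0.09 ± 0.01 (SD, n = 2, adjusted p = 0.680). The 1 h slides of LHCB4 agree closely and lie near equality, whereas its mean was -0.48 in low light and -0.41 at 6 h, and its steps into and out of 1 h did not pass (adjusted p = 0.450 and 0.359).

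The photosystem reaction centres contributed 4 genes from the nucleus. PSAD (CHLRE_05g238332v5), a stromal subunit of photosystem I on which ferredoxin docks, had -0.14 and -0.62 on wild-type-first slides and -0.35 and -0.29 on mutant-first slides. All slides were negative, the mean was -0.35 ± 0.15 (SD, n = 2), and its adjusted p of 0.0683 in limma was the smallest of the 93 locus-tagged elements. PSBQ (CHLRE_08g372450v5), a lumenal protein of the oxygen-evolving complex of photosystem II, had nearly the same pattern, with -0.13 and -0.64 in one orientation and -0.34 and -0.28 in the other. Its mean was -0.35 ± 0.16 (SD, n = 2, adjusted p = 0.111), from 10 measured spots. Averaged over the orientations, both genes were more negative in biological sample 2 than in sample 1. On mutant-first slides the order was reversed. The wild-type-first slide of sample 2 is the slide with the most values of 0.

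The stromal subunit PSAE (CHLRE_10g420350v5), which also helps ferredoxin to bind, was negative on all 4 slides, between -0.22 and -0.06, with a mean of -0.15 ± 0.01 (SD, n = 2, adjusted p = 0.463). PSAF (CHLRE_09g412100v5), the docking subunit for plastocyanin, had slides from -0.29 to 0.31 and a mean of -0.05 ± 0.16 (SD, n = 2, adjusted p = 0.865). The spread of PSAF between samples was larger than its distance from equality.

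Of the electron carriers, plastocyanin, the copper protein of the lumen encoded by PCY1 (CHLRE_03g182551v5), had the most negative mean with the deposited sign. Its ratios were -0.59 in both samples on wild-type-first slides, and -0.11 and -0.22 on mutant-first slides. All slides were negative, with a mean of -0.38 ± 0.04 (SD, n = 2, adjusted p = 0.166), and -0.21 with the exchanged slides turned, as for PETF at -0.21. The cytochrome b6f subunit PETM (CHLRE_12g546150v5) had slides of both signs and a mean of -0.16 ± 0.22 (SD, n = 2, adjusted p = 0.685) and ferredoxin, PETF (CHLRE_14g626700v5), one of -0.11 ± 0.08 (SD, n = 2, adjusted p = 0.694). PETF had -0.34 and -0.31 on wild-type-first slides but 0.00 and 0.21 on mutant-first slides, so its sign followed the orientation.

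Chloroplast ATP synthase was measured by 3 elements of the gamma subunit gene ATPC (CHLRE_06g259900v5) and 1 of the delta subunit gene ATPD (CHLRE_11g467569v5). The 3 ATPC elements share a target and are not replicates of a condition. Their means were -0.18 ± 0.03, -0.02 ± 0.05 and 0.01 ± 0.24 (SD, n = 2 each, adjusted p from 0.311 to 0.985), and each had both signs among its slides. ATPD was negative on all slides, from -0.48 to -0.05, with a mean of -0.23 ± 0.22 (SD, n = 2, adjusted p = 0.518).

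**Figure D2:**
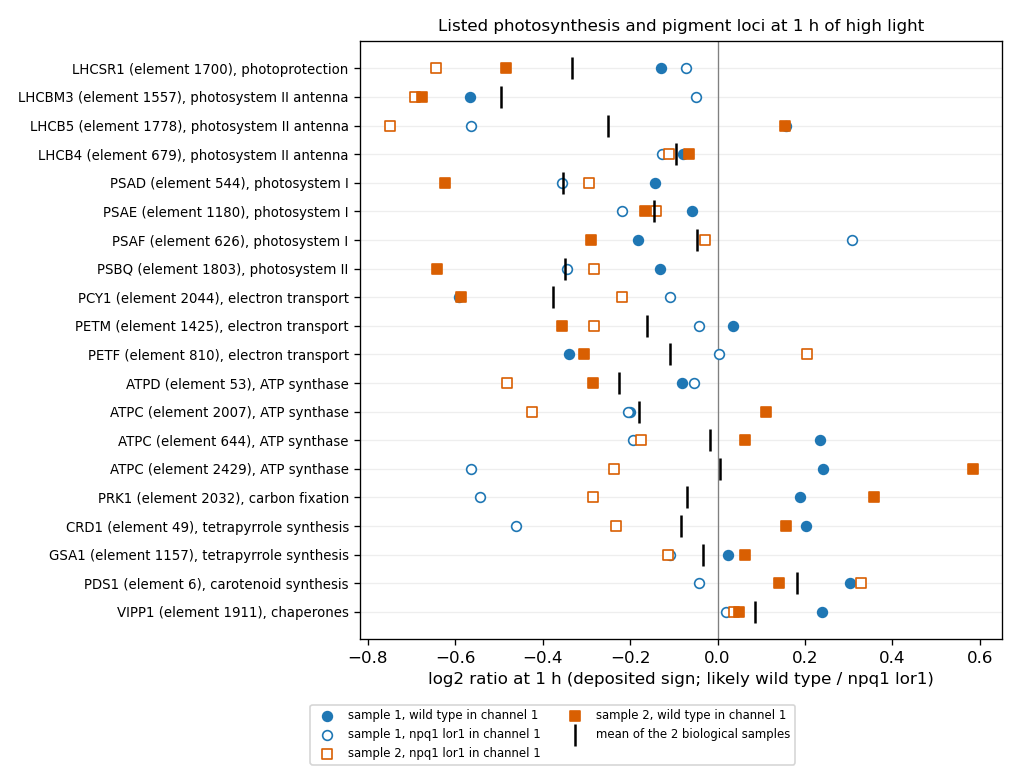
Log2 ratio at 1 h (x axis) of the 20 elements of the listed loci on each of the 4 slides, with the mean of the 2 biological samples as a bar. Circles are sample 1 and squares sample 2, filled with wild type in channel 1 and open with npq1 lor1 there. LHCBM3, PCY1, PSAD, PSBQ and LHCSR1 lie below 0 on every slide, while LHCB5, PRK1 and CRD1 split by orientation.

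Counted together, 14 of the 15 elements of thylakoid complexes had a negative mean at 1 h, where 45.9% of all tested elements did. The median ratio of the 15 was -0.18, against 0.01 over all tested elements. Negative values on all 4 slides were held by 8 of the 15, and 7 of the 15 had a negative ratio with an unadjusted p under 0.05, where the shares over all tested elements were 3.74% and 6.95%. These lists were drawn up with earlier results of these data known. The elements share slides, and ATPC is counted by several of them, so the counts describe the elements and give no test of the group. Without slide 2 of biological sample 2, 13 of the 15 were negative with a median of -0.26. Of all elements 60.4% were negative there, with a median of -0.04. With wild-type-first slides alone 12 were negative (27.5% of all elements), and with mutant-first slides alone 13 (70.6%). If the exchanged slides had not been inverted, 6 of the 15 would be negative, with a median of 0.02. Of all elements 25.9% would then be negative, with a median of 0.12.

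The listed enzymes of carbon fixation and chlorophyll synthesis had small means with slides of both signs. Phosphoribulokinase, PRK1 (CHLRE_12g554800v5), an enzyme of the carbon fixation cycle, had a mean of -0.07 ± 0.15 (SD, n = 2, adjusted p = 0.760). Glutamate-1-semialdehyde aminotransferase, GSA1 (CHLRE_03g158000v5), which makes the precursor of chlorophyll and haem, had -0.03 ± 0.01 (SD, n = 2, adjusted p = 0.910) at 1 h, against -0.53 at 6 h (adjusted p = 0.0108), and its step of -0.49 between them did not pass (SE 0.11, adjusted p = 0.126). The CRD1 gene (CHLRE_07g346050v5), for a subunit of a cyclase of chlorophyll synthesis, had -0.08 ± 0.07 (SD, n = 2, adjusted p = 0.706). PRK1, CRD1 and GSA1 were positive on wild-type-first slides and negative on mutant-first slides, in both biological samples.

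Phytoene desaturase, PDS1 (CHLRE_12g509650v5), acts early in the carotenoid pathway that is blocked further on in the mutant. Its ratios were 0.30 and 0.14 on wild-type-first slides and -0.04 and 0.33 on mutant-first slides. The mean of 0.18 ± 0.07 (SD, n = 2, adjusted p = 0.372) was the most positive of the 20 listed elements with the deposited sign, and 3 of the 4 slides were above 0. Its unadjusted p was 0.0313. With the exchanged slides turned PDS1 had 0.04, below LHCB5 and PRK1 at 0.41 and 0.34. VIPP1 (CHLRE_13g583550v5), which maintains thylakoid membranes, was positive on all slides, between 0.02 and 0.24, with a mean of 0.09 ± 0.06 (SD, n = 2, adjusted p = 0.774).

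Among the locus-tagged elements outside these lists, malate synthase, MAS1 (CHLRE_03g144807v5), an enzyme of the glyoxylate cycle by which the alga uses acetate, had the largest mean with the deposited sign. It had 0.81 and 0.68 on wild-type-first slides and 0.39 and 0.47 on mutant-first slides. All 4 slides were clearly positive and the biological samples, at 0.60 and 0.57, nearly coincided. The mean was 0.59 ± 0.02 (SD, n = 2), a 1.50-fold difference, but limma's adjusted p was 0.128. With the exchanged slides turned it was 0.16, below CHLRE_12g492300v5 at 0.51. In low light the biological samples of MAS1 had -0.20 and -0.22, and at 6 h 0.22 and -0.54. The gap at 6 h enters the shared spread that the test at 1 h uses. The step of MAS1 from low light to 1 h was 0.79 (SE 0.20, adjusted p = 0.450) and did not pass.

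The fatty acid desaturase FAD6 (CHLRE_13g590500v5), which adds double bonds to chloroplast membrane lipids, also had positive ratios on every slide. They were 0.22 and 0.63 on wild-type-first slides and 0.30 and 0.31 on mutant-first slides, with a mean of 0.37 ± 0.15 (SD, n = 2, adjusted p = 0.304). Its means in low light and at 6 h were 0.64 and -0.10. MAS1, FAD6 and VIPP1 were the 3 locus-tagged elements that were tested and positive on all slides, and 11 of the 93 were negative on all slides, 8 of them of thylakoid complexes. Over all tested elements the shares were 5.15% and 3.74%.

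Genes of respiration and of fermentation had small ratios. The alpha and beta subunits of mitochondrial ATP synthase, ATP1 (CHLRE_02g116750v5) and ATP2 (CHLRE_17g698000v5), had means of -0.11 ± 0.01 and -0.08 ± 0.01 (SD, n = 2 each), and the mitochondrial ADP/ATP carrier ANT1 (CHLRE_09g386650v5) had -0.07 ± 0.20 (SD, n = 2). The 2 elements of the iron hydrogenase HYDA1 (CHLRE_03g199800v5), which makes hydrogen without oxygen, had 0.00 ± 0.03 and 0.02 ± 0.03 (SD, n = 2 each). HYDA2 (CHLRE_09g396600v5), its paralog, had 0.04 ± 0.16 (SD, n = 2). All 6 elements had slides of both signs, and none had an adjusted p below 0.655 in limma.

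The further named genes outside photosynthesis that were tested also had slides of both signs. Manganese superoxide dismutase MSD1 (CHLRE_02g096150v5), which removes superoxide, had a mean of 0.02 ± 0.02 (SD, n = 2). The haem pathway enzyme coproporphyrinogen III oxidase, CPX1 (CHLRE_02g085450v5), and the carbonic anhydrase CAH6 (CHLRE_12g485050v5) each had 0.06, with SDs of 0.02 and 0.03 (n = 2). For the alternative oxidase AOX1 (CHLRE_09g395950v5), the glutamine synthetase GLN1 (CHLRE_02g113200v5) and the ferredoxin FDX2 (CHLRE_16g658400v5), at least 1 slide had no value and no test was made. FTT1 (CHLRE_12g559250v5), a signalling adaptor protein, had 0.11 ± 0.27 (SD, n = 2), a spread larger than its distance from equality. Over the 73 tested locus-tagged elements outside the lists, 41 were positive and 32 negative, with a median of 0.02, where 45.9% of all tested elements were negative. Of the 73, 0 passed limma's adjusted threshold and 7 had an unadjusted p under 0.05, against 11.8% of all tested elements.

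With the deposited sign, the strongest strain difference by the test was that of element 911, which is known only by the number of its first spot. At 1 h it had -1.37 and -1.60 on wild-type-first slides and -1.41 and -1.61 on mutant-first slides. The slides of either orientation thus gave nearly the same value, and all 14 measured spots lay between -1.99 and -1.23. Its mean of -1.50 ± 0.15 (SD, n = 2), or 2.82-fold, had an adjusted p of 1.23e-04 in limma. With the exchanged slides turned its mean was 0.0148, so the strain difference of element 911 rests on the deposited sign.

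In low light the 15 spots of element 911 lay between -0.75 and -0.01, and at 6 h its 14 spots lay between -1.15 and 0.27. No spot of the other time points reached the range of the 1 h spots. The step into 1 h was -1.23 (SE 0.12, adjusted p = 0.0105) and the step out of it was 1.27 (SE 0.12, adjusted p = 0.00722). Both steps use the same 1 h samples. The step from low light was 1 of 2195 tested elements that passed (0.0456%).

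**Figure D3:**
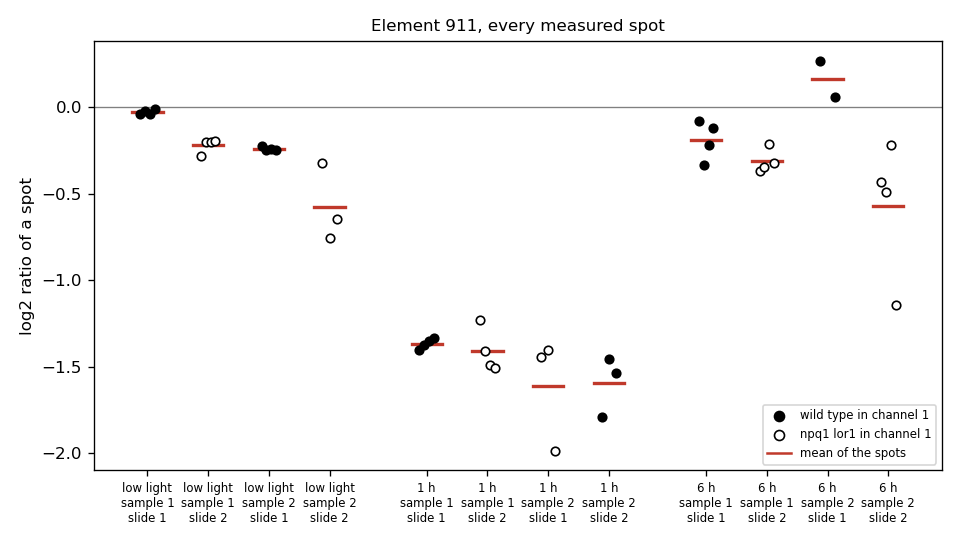
Log2 ratio of every measured spot of element 911 (y axis) on the 12 slides, grouped by time point, biological sample and slide. Filled circles have wild type in channel 1, open circles npq1 lor1, and red bars are slide means. The 14 spots at 1 h lie between -1.99 and -1.23, below all spots of the other time points.

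Elements 1445, 1198 and 877 followed with negative ratios on every slide. Element 1445 had -0.74 and -1.37 on wild-type-first slides and -1.11 and -1.06 on mutant-first slides, with a mean of -1.07 ± 0.20 (SD, n = 2, adjusted p = 0.0185). Its means of -0.34 in low light and -0.04 at 6 h were nearer to equality, but the steps did not pass (adjusted p = 0.545 and 0.0886). Element 1198 had -1.05 and -1.28 in the first orientation and -0.68 and -1.09 in the second, a mean of -1.02 ± 0.23 (SD, n = 2, adjusted p = 0.0185). Its ratio was called at every time point, at -1.10 in low light and -1.25 at 6 h. Element 877 had a mean of -0.75 ± 0.18 (SD, n = 2, adjusted p = 0.0185) and could be tested only at 1 h.

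The 7 other negative elements had means between -0.59 and -0.44. Element 1697 had -0.14 and -0.40 on wild-type-first slides and -0.75 and -1.05 on mutant-first slides, with a mean of -0.59 ± 0.20 (SD, n = 2) at 1 h and of -0.01 in low light. On wild-type-first slides alone it was not called (-0.27, adjusted p = 0.170). Elements 1314 and 1018, at -0.56 ± 0.18 and -0.54 ± 0.04 (SD, n = 2 each), were also called in low light, at -0.83 and -0.65. Both were negative on all 1 h slides, but slide 2 of biological sample 2 gave -0.03 for element 1314 and -0.21 for element 1018. Element 630 was the most even of the 7, with slides between -0.56 and -0.33 and a mean of -0.48 ± 0.05 (SD, n = 2, adjusted p = 0.0185).

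Elements 575, 47 and 400 lay near equality in 1 orientation. On mutant-first slides their ratios lay between -0.91 and -0.77. On wild-type-first slides they were -0.04 and -0.12 for element 575, 0.10 and -0.22 for element 47, and -0.11 and 0.07 for element 400. Their means were -0.45 ± 0.04, -0.45 ± 0.06 and -0.44 ± 0.04 (SD, n = 2 each, adjusted p = 0.0378, 0.0227 and 0.0185). The SD between biological samples is small because the orientations are averaged first, and the gap between orientations does not enter it.

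**Figure D4:**
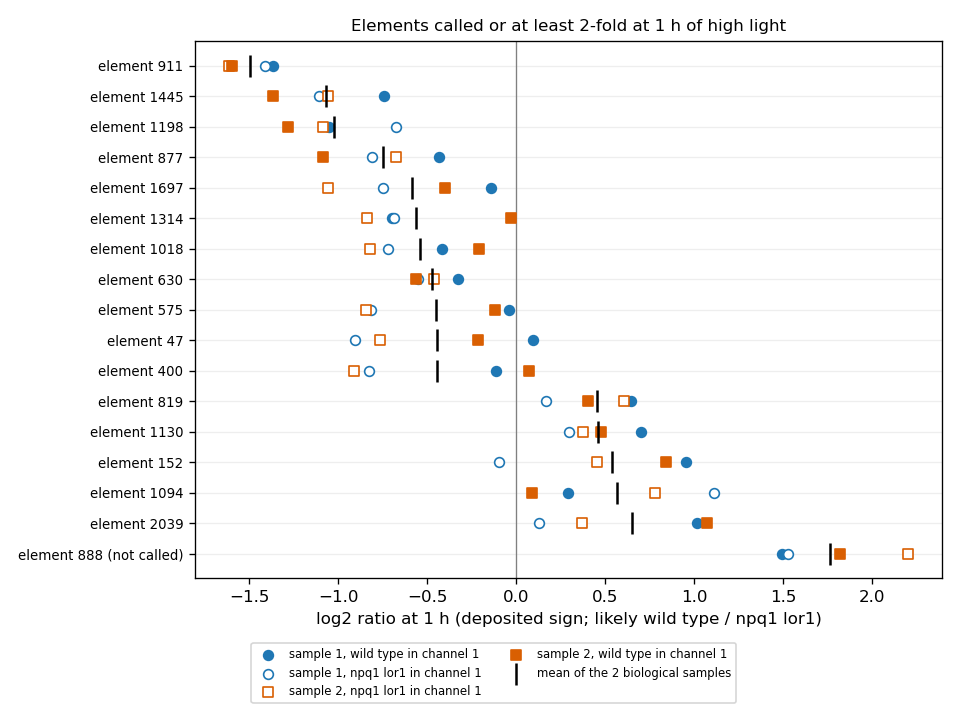
Log2 ratio at 1 h (x axis) on each of the 4 slides for the 16 called elements and for element 888, with the mean of the 2 biological samples as a bar. Circles are sample 1 and squares sample 2, filled with wild type in channel 1 and open with npq1 lor1 there. Elements 911 and 630 hold nearly the same value on all slides, while elements 575, 47 and 400 lie between -0.22 and 0.10 with wild type in channel 1.

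The 5 positive elements were 2039, 1094, 152, 1130 and 819. Element 2039 had 1.02 and 1.07 on wild-type-first slides but 0.13 and 0.37 on mutant-first slides, and a mean of 0.65 ± 0.10 (SD, n = 2, adjusted p = 0.0185). The opposite held for element 1094, with 0.29 and 0.09 in the first orientation and 1.11 and 0.78 in the second, and a mean of 0.57 ± 0.19 (SD, n = 2, adjusted p = 0.0312). Element 152 had 0.95 and 0.84, then -0.09 and 0.45, with a mean of 0.54 ± 0.15 (SD, n = 2, adjusted p = 0.0242).

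Elements 1130 and 819 were positive on every slide. The slides of element 1130 lay between 0.30 and 0.70 and its mean was 0.46 ± 0.05 (SD, n = 2, adjusted p = 0.0185). Those of element 819 lay between 0.17 and 0.65, with a mean of 0.46 ± 0.07 (SD, n = 2, adjusted p = 0.0185). Both were also called with positive ratios at 6 h, at 0.33 and 0.53.

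Of the 16 calls, 5 were also made on the slides of either orientation alone, for elements 911, 1445, 1198, 877 and 630. On wild-type-first slides alone 7 were lost (1697, 1314, 1018, 575, 47, 400 and 1094), and on mutant-first slides alone 4 (819, 1130, 152 and 2039). Over all tested elements, wild-type-first slides alone called 244 of 2287 and mutant-first slides alone 453 of 2624. With the exchanged slides turned, the means of the 5 elements kept were 0.01, 0.01, -0.14, -0.01 and 0.03. Agreement of the orientations shows a strain difference only if the slides were inverted as described, which is not settled.

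Over the 16 called elements, 13 had one sign on all 4 slides and 3 (elements 47, 400 and 152) did not. The size of the mean ran from 0.44 to 1.50 with a median of 0.55, and 3 elements exceeded 2-fold. Of the 15 that were also tested in low light, 14 had the same sign there, and 4 were called there, against 0.334% of all tested elements. At 6 h 12 of 15 had the same sign and 4 were called, against 2.01% of all tested elements. The share with the same sign over all elements was not counted. The 4 called in low light were 1198, 1314, 1018 and 47, and the 4 called at 6 h were 1198, 1018, 819 and 1130. All time points share the estimate of an element's spread, so these lists are not independent. Only element 911 differed between 1 h and low light by the test of the difference itself, and only elements 911 and 630 of the 16 differed between 1 h and 6 h. Without biological sample 1 of 1 h the ratio of element 911 was -1.60, and without sample 2 it was -1.39. No other element of the 16 kept its call in either fit.

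A ratio of at least 2-fold in both biological samples was found for 2 of 2272 elements (0.088%), 911 and 888. Element 888 had the most positive ratio at 1 h, with 1.49 and 1.82 on wild-type-first slides and 1.53 and 2.20 on mutant-first slides. Its 15 spots lay between 1.14 and 2.92. The mean of 1.76 ± 0.36 (SD, n = 2), a 3.39-fold difference, missed the threshold in limma (adjusted p = 0.0595). In low light its biological samples had 0.98 and 1.58. At 6 h biological sample 1 had 1.68 while sample 2 had 0.00 on average, with -0.01 and 0.02 on its slides. This gap at 6 h enters the shared spread of the element.

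From low light to 1 h, 113 of 2195 elements had an unadjusted p under 0.05 (5.15%) and 1 passed the adjusted threshold. From 1 h to 6 h, 175 of 1925 elements did (9.09%) and 4 passed (0.208%), which were 911 and 630, with ratios that rose, and 1734 and LHCB5, with ratios that fell. LHCB5 fell by 0.69 (SE 0.10, adjusted p = 0.0412), from a 1 h mean that averages opposite signs. Element 630 rose by 0.67 (SE 0.09, adjusted p = 0.0412) to 0.20. Element 1734 fell by 0.63 (SE 0.09, adjusted p = 0.0412), from -0.12 at 1 h, where the orientations also had opposite signs, to -0.76.

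For the thylakoid complexes, 11 of 14 steps from low light to 1 h were negative, where 952 of 2195 were over all elements. The median step was -0.10 against 0.02 over all elements. 0 of the 14 passed the adjusted threshold in limma, and 2 had an unadjusted p under 0.05, LHCB4 with a positive step of 0.39 and, among the negative ones (2.55% of all elements), 1 ATPC element with a negative step of -0.25. From 1 h to 6 h, 13 of 14 steps were negative, where 928 of 1925 were over all elements. The median step was -0.21 against 0.01. Of these 14, 1 passed and 5 had a negative step with an unadjusted p under 0.05, where 4.62% of all elements did. The mean ratios of the same 14 elements had a median of -0.09 in low light and -0.42 at 6 h, with 1 called in low light (0.334% of all elements there) and 7 at 6 h (2.01%). The low light and 6 h steps share the 1 h samples.

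**Figure D5:**
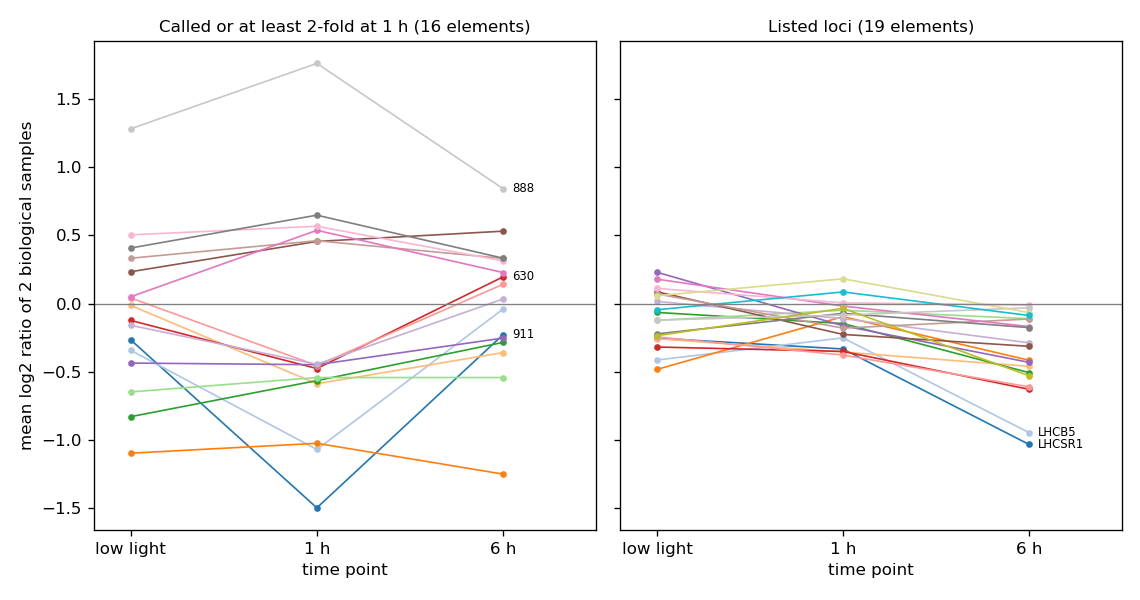
Mean log2 ratio of 2 biological samples (y axis) at the 3 time points (low light, 1 h, 6 h of high light) for the elements called or at least 2-fold at 1 h (left, 16 with values at all times) and for the listed loci (right, 19). Element 911 dips at 1 h alone, and most listed loci lie nearer to 0 at 1 h than at 6 h.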

How the data were processed

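Total RNA of wild type and npq1 lor1 was hybridised together on each slide. The deposited values are log2 ratios that the authors normalized in SNOMAD, per the labels, as Cy3 over Cy5 on wild-type-first slides (wild type as the source of channel 1) and as Cy5 over Cy3 on mutant-first slides. The sources used here do not give SNOMAD settings, background correction or spot filters. Medians of the deposited values without zeros were 0.17 and 0.06 on the wild-type-first 1 h slides, and -0.17 and -0.04 on the others. How slides were centred is unknown, and the direction is likely but unsettled. Scanner intensities were not analysed here.

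Zeros were taken as missing, the 4 copies of an element (2880 spot numbers apart, at least 2 values) were averaged, then the 2 exchanged slides of a biological sample. Means of the 3 time points were fitted to 6 values per element with limma 3.58.1 (R 4.3.3; lmFit, then eBayes with a prior SD of 0.108 on 5.66 degrees of freedom), tested two-sided and adjusted by Benjamini-Hochberg over all tested elements. Precision is limited by the number of slides; the median SE at 1 h was 0.0745. The procedure was tested on simulated data. Alternatives changed the spread, the replicate block, zeros, copies, centring, regional trends, orientation and biological samples.

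Locus tags came from the platform annotation, and the reference gene table held all 100 of them, without symbols. The condition that this table bear out a gene's name could therefore not be applied, and names come from general knowledge. Of the listed loci, 18 (20 elements) are on the array. A further 14 loci were named after their values were seen. An element with 2 locus tags was not named. Named were all elements past the adjusted threshold at 1 h or for a step to or from it, those at least 2-fold in both samples, the listed loci and up to 5 locus-tagged elements per direction with one sign on all slides. The elements and lists were chosen with earlier results of these data known.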

Additional observations from a re-analysis of the deposited data

Results flagged for a closer look

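The strain ratio differed between time points, by the test of the difference itself, for 4 elements. Element 911 moved by -1.23 from low light to 1 h and by 1.27 from 1 h to 6 h. From 1 h to 6 h element 630 moved by 0.67, element 1734 by -0.63 and LHCB5 (element 1778) by -0.69. The call for element 911 from low light to 1 h was kept in 14 of 17 alternatives that used both orientations as deposited, and that from 1 h to 6 h in 13 of 16. Element 630 kept its call in 9 of 16 alternatives, element 1734 in 10 of 17 and LHCB5 in 9 of 17. These tallies count some fits more than once. A step has the same fit with its own spread and without either sample of the time point outside it. For VIPP1 (element 1911), 1 of the 4 slides at 1 h, at 0.24, stood apart from the other 3, which lay between 0.02 and 0.05. About 1 in 20 groups of 4 independent values is expected to show such a gap by chance. The 4 slides are not independent, so this rate is only a rough guide here.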

How the results depend on the processing

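The 16 calls at 1 h depend on the spread between few samples. The count was 81 with the spread taken from 1 h alone, 28 with at least 3 copies, and 62 and 80 with slides as separate values in a random block, without and with a dye term. Slides of a single orientation gave 244 (wild type in channel 1) and 453 (npq1 lor1 there), and turning the sign of the exchanged slides gave 796. Leaving out 1 biological sample of any time point gave 1 to 37 calls: 4 and 1 without sample 1 or 2 of 1 h, 37 without either sample of low light and 27 without either of 6 h. The other 6 alternatives gave 11 to 17. Leaving out either sample of low light is the same fit at 1 h, as is leaving out either of 6 h. The tallies below thus count some fits more than once and are not separate checks. Element 911 kept its call at 1 h in 17 of 17 alternatives with both orientations as deposited. In the same alternatives MAS1 passed in 8 of 17, element 888 in 10 of 17, PCY1 in 5 of 17, PSAD in 4 of 17, PSBQ in 3 of 16, LHCBM3 in 3 of 14, and LHCSR1 and FAD6 in 1 of 17 each. Of the 15 elements of thylakoid complexes, 5 were called with the spread of 1 h alone, 2 with at least 3 copies, 2 and 3 with the random block, and 1 without any one sample of low light or 6 h. For the step from low light to 1 h (1 call) the counts were 2 with its own spread, 4 with at least 3 copies, 2 and 4 with the random block, and 0 in limma with npq1 lor1 in channel 1 only (138 at an unadjusted p under 0.05), with turned signs (31) and without the 1 h slide richest in zeros (202), an alternative chosen after seeing the data. Leaving out a biological sample gave 0 to 3, with 0 without either sample of 1 h. For the step from 1 h to 6 h (4 calls) they were 19 with its own spread, 1 with at least 1 copy, 2 with zeros kept, 33 and 43 with the random block, 8 with wild type in channel 1 only, 0 with npq1 lor1 there (171 at an unadjusted p under 0.05), 0 with turned signs (166) and 1 without the slide richest in zeros, and leaving out a biological sample gave 0 to 19, with 0 without either sample of 1 h or sample 2 of 6 h. The causes were not tested. The biological sample number as a replicate block gave 24 calls at 1 h, 3 for the step from low light and 16 for the step to 6 h. The labels do not say that samples with the same number share a culture or day. The correlation of their differences was 0.23 for low light with 1 h, but -0.02 for low light with 6 h and -0.15 for the high light samples, and the numbers were not used as pairs.

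Turning the sign of the exchanged slides reversed these 1 h ratios: elements 47 (0.39), 400 (0.42), 575 (0.37), 630 (0.0314), 888 (-0.10), 911 (0.0148), 1018 (0.23), 1094 (-0.38), 1314 (0.20), 1445 (0.0141) and 1697 (0.31), LHCSR1 (0.0262), LHCB5 (0.41), LHCB4 (0.0232), PSAE (0.0336), PETM (0.00142), ATPD (0.0419), ATPC elements 2007 (0.14) and 644 (0.17), PRK1 (0.34), CRD1 (0.26) and GSA1 (0.0771). With wild type in channel 1 only, LHCB5 (0.16), ATPC element 644 (0.15), PRK1 (0.27), CRD1 (0.18) and GSA1 (0.0429) reversed, and with npq1 lor1 there PSAF (0.14), PETF (0.10) and ATPC element 2429 (-0.40). Without the slide richest in zeros PSAF (0.0168), PETF (0.0184) and ATPC element 2429 (-0.20) reversed. Further reversals near 0 were ATPC element 644 (0.00969) and 2429 (-0.0304) with zeros kept, element 2429 with the median of copies (-0.0774), and values without one 1 h sample. Those were, without sample 1 and without sample 2, -0.16 and 0.0628 for PSAF, -0.0559 and 0.0209 for ATPC element 644, 0.17 and -0.16 for ATPC element 2429, and 0.0368 and -0.178 for PRK1.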

Other observations

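Some elements were far from equality on single slides and near it on average. The locus CHLRE_03g178250v5 had log2 ratios of -0.51 and -0.53 at 1 h with wild type in channel 1 and of 0.81 and 0.51 with npq1 lor1 there, which gave a mean of 0.07. Locus CHLRE_10g465250v5 had -0.44 and -0.24, then 0.68 and 0.69, with a mean of 0.17 (limma adjusted p = 0.383). Both biological samples repeated the split by orientation. The difference between orientations, divided by 2, was larger than the mean for 70.7% of all tested elements. It was larger for 0 of the 16 called elements and for 5 of the 15 elements of thylakoid complexes. The 16 were called by the size of their mean, so their count follows largely from that choice. Element 320, which carries 2 locus tags and was not named, was negative on all 1 h slides, from -1.16 to -0.39, with a mean of -0.76 ± 0.36 (SD, n = 2, adjusted p = 0.293).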
